A study of Mus musculus with 18 samples.

Results

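Transcriptional coactivators and corepressors are proteins that bind to transcription factors and change how strongly their target genes are transcribed. Circular RNAs (circRNAs), loops in which a downstream splice donor is joined back to an upstream splice acceptor, were examined from 10 genes of this kind: Ep300, Kat6b, Ncoa6, Med13l, Cdk8, Chd1, Wac, Ncor1, Rere and Tle1. The genes were chosen by function from the host genes of a deposited table of 474 circRNAs, with earlier results of these data known, and every circRNA with both ends inside 1 of the genes on GRCm38 was taken. Each of the 10 genes held 1 such circRNA, 10 of 474 in all. The table lists circRNAs that had reads in at least 9 of the 18 libraries, so detection is a measured value on which the members were selected, and circRNAs seen in fewer libraries were not analysed here.

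The libraries were made from liver RNA of 18 male C57BL/6 mice, bought at 6 weeks of age, with 6 mice in each of 3 groups and 1 library per mouse. Control mice had corn oil injected into the peritoneum and were given water by mouth. Cirrhosis mice had a 10% mixture of carbon tetrachloride (CCl4), a liver toxin that scars the liver, in corn oil, and the same water. Cirrhosis-PTH mice had the same CCl4 injections and Pien Tze Huang (PTH), a traditional Chinese formula, by mouth each day at 0.25 mg per g. All injections were of 10 µl per g and were repeated 2 times a week, and the livers were collected after 12 weeks; the treatment protocol covers 45 mice, 15 per group.

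Coactivators such as p300 (Ep300) and KAT6B (Kat6b) acetylate histones, which opens chromatin, while corepressors such as NCOR1 (Ncor1), RERE (Rere) and TLE1 (Tle1) bring in histone deacetylases, which close it. Mediator, to which CDK8 (Cdk8) and MED13L (Med13l) belong, passes signals from bound transcription factors to RNA polymerase II. In liver, nuclear receptors that control lipid, bile acid and sugar metabolism work through coactivators and corepressors of this kind. A circRNA of such a gene is a by-product or an alternative product of its splicing, and its level does not report the level of the protein.

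Both ends of all 10 circRNAs coincided with exon ends of their host gene, and 8 of 10 held coding sequence only (80.0%, beside 83.0% of the 435 circRNAs of the table whose ends both matched exon ends of 1 transcript). The Med13l circRNA is exon 2 alone, a circle of 238 bases on the plus strand at chr5:118593333-118593570. The Tle1 circRNA joins exons 5 and 6, a circle of 138 bases on the minus strand at chr4:72169122-72170770. The back-splice junctions of the 4 members of highest mean level come first, since reads across these junctions are what was counted. The first 15 bases, in lower case, end the last exon of the circle, and the capitals are the first 15 bases of its first exon, to which they are joined.
Med13l junction: atcatgaactgcaggGCTGAACTCACAGGA
Cdk8 junction: ttgcacagggatttgGAAGGACGATAAAGA
Ep300 junction: cagttaccagaacagGATTACTTTGATATT
Tle1 junction: aatgccatcatcgggACTGAAATCGCCAAG
In the linear transcript used, the parts of each of these 30-base runs lie in the opposite order. The whole circles of Med13l, the most abundant member, and Tle1, the shortest, follow from their first to their last base, with the 15 bases at each end in capitals, which meet at the junction.
Med13l circle: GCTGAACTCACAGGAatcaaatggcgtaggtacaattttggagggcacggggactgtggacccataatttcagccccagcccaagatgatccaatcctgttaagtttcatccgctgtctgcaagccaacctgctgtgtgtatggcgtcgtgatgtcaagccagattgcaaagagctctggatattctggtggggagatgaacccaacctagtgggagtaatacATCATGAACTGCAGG
Tle1 circle: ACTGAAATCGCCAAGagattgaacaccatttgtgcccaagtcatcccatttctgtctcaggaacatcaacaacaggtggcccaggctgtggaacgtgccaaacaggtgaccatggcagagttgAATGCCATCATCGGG
The Tle1 circle spans codons 79 to 124 of the 770 codons of the host protein, and the Med13l circle spans codons 25 to 104 of 2207.

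In features of position, which the choice of genes did not use, the members lay near the table as a whole. Their median spliced length was 322 bases and their median number of exons 2, beside 306 bases and 3 exons over the 435 placed circRNAs. Exon 2 was the first exon of the circle in 3 of 10 members (30.0%; Med13l, Cdk8 and Ncor1), beside 38.9% of the 435. The Ncoa6 and Ncor1 circles hold the start codon of their host and span 5' UTR and coding sequence. The length was a multiple of 3 in 5 of 10 members (50.0%, beside 34.7%). Of these, the circles of Tle1 (46 codons), Wac (112 codons) and Kat6b (212 codons) are wholly coding, and read round once in the frame of the host they hold 0 stop codons. The same was true of 129 of the 130 wholly coding circles of that kind in the table (99.2%), so it is not particular to the members.

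Long introns lay on both sides of most member circles, as they did in the table as a whole. The intron before the circle had a median of 22817 bp over the members and the one after it 10600 bp (10599.5), beside 11695 bp and 10469 bp over the 435. The intron before the circle was longer than the median intron of its host transcript in 9 of 10 members (90.0%, beside 83.0% of the 435), and the one after it in 10 of 10 (beside 86.6%). In Cdk8, Tle1, Wac and Ncor1 the intron before the circle is the longest of the host transcript, and in Med13l the intron after it is, at 77442 bp. Kat6b is the exception on the upstream side, with 1830 bp against a host median of 2700 bp. The Ep300 circle of exons 18 and 19 is flanked by 1494 bp and 1491 bp, close to its host median of 1377 bp.

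**Figure D1:**
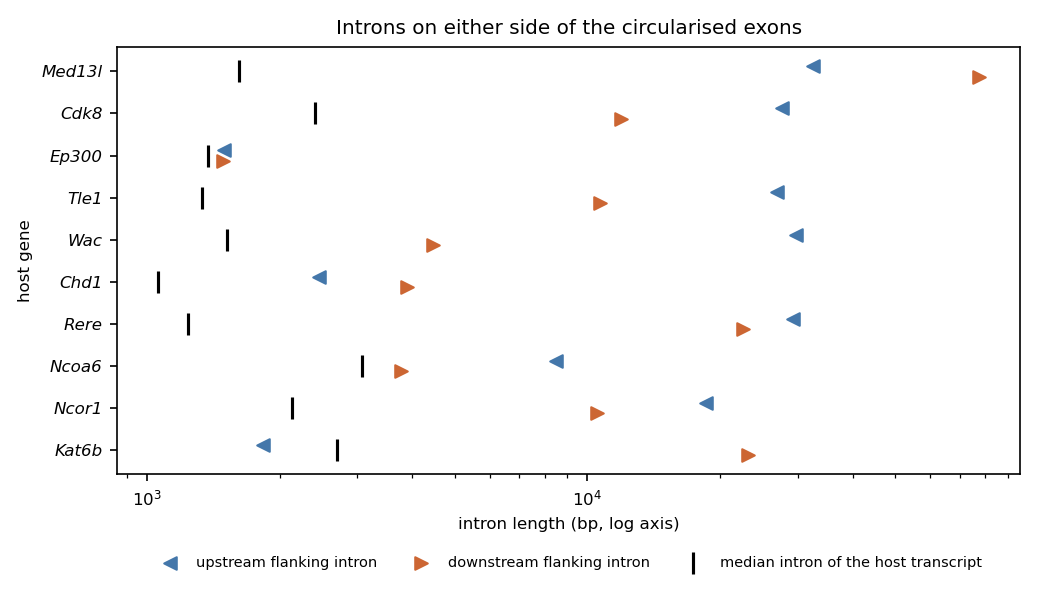
Length of the intron before (blue) and after (orange) each circle, in bp on a log axis, with the median intron of the host transcript as a black bar. All 20 flanking introns but the upstream one of Kat6b lie to the right of the bar, and those of Ep300 lie nearest to it.

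The deposited values are reads across back-splice junctions scaled to a library total (CPM). Each circRNA has 1 junction, so levels are compared between circRNAs without division by length. Depth was low. All 5886 values above 0 in the table came out as whole reads within 0.01, 794 to 8431 per library, and 1 read was worth 0.0343 to 0.370 CPM. A library with 0 reads of a circRNA could hold up to 3 reads' worth, 0.103 to 1.11 CPM, counting error only. Control 1 was the shallowest library and Cirrhosis-PTH 6 the deepest.

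The 10 members took 203 reads in Control livers, 299 in Cirrhosis livers and 345 in Cirrhosis-PTH livers. Med13l ranked 14th of 474 by mean CPM, Cdk8 61st and Ep300 96th, while Kat6b, the lowest, ranked 425th. Summed over the members, Control libraries held 6.22 ± 3.65 CPM, Cirrhosis libraries 8.02 ± 3.12 and Cirrhosis-PTH libraries 5.08 ± 2.02 (SD, n = 6), or 2.48 ± 1.19%, 2.52 ± 0.766% and 2.06 ± 0.243% of the summed CPM of the table. Control 1 stood apart at 13.3 CPM, from 36 reads, with the other Control libraries at 3.34 to 6.33. It held the highest value of 7 of the 10 members within Control. From 3 to 9 members were detected per library, fewest in Cirrhosis 6, which had reads of Med13l, Wac and Ncor1 only.

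**Figure D2:**
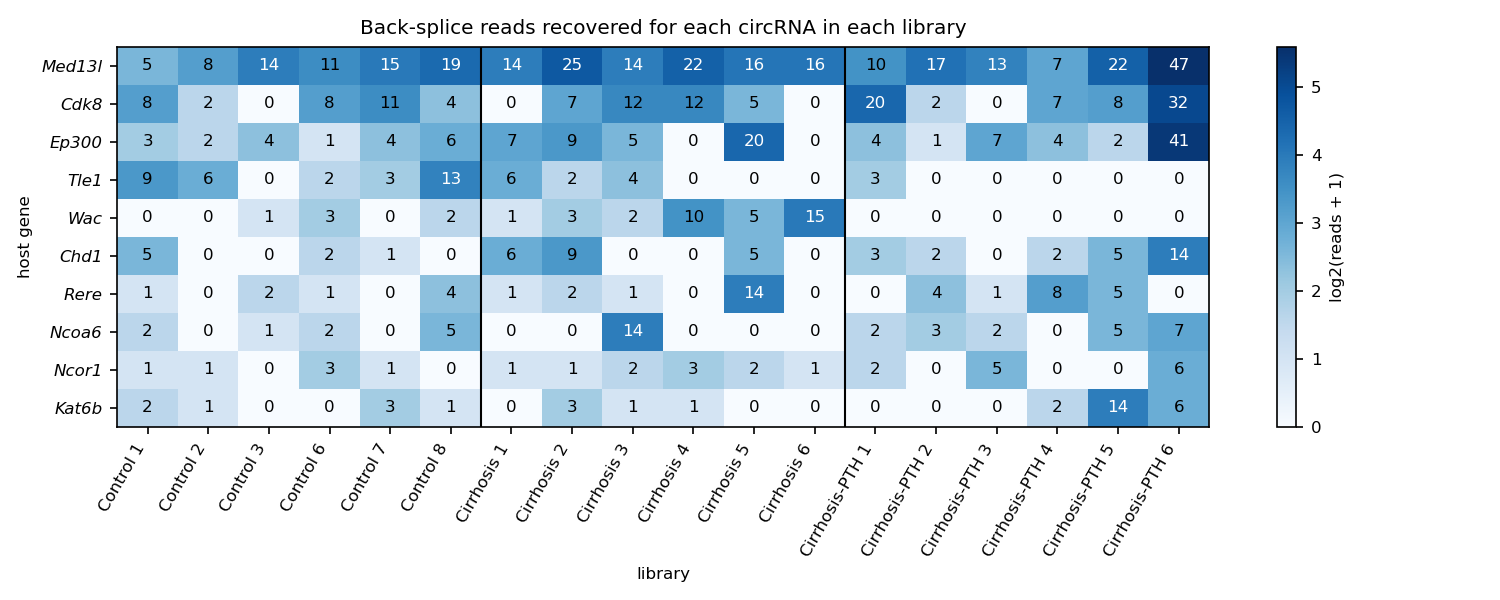
Back-splice reads of each member circRNA (rows, ordered by mean CPM) in each of the 18 libraries (columns, black lines between groups), with the colour on a log2(reads + 1) scale. Med13l has reads in all 18 libraries, Wac has 36 reads in Cirrhosis and 0 in Cirrhosis-PTH, and Tle1 has 33 reads in Control and 3 in Cirrhosis-PTH.

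The largest differences between groups among the members were those of the circRNAs of Wac and Tle1. The Wac circRNA averaged 0.15 CPM in Control and 1.13 in Cirrhosis and had no read in any Cirrhosis-PTH library. The Tle1 circRNA averaged 1.15 CPM in Control livers, 0.256 in Cirrhosis livers and 0.0876 in Cirrhosis-PTH livers. Tle1, Med13l, Cdk8, Ep300, Chd1, Rere, Ncoa6, Ncor1 and Kat6b had group ranges that overlapped in every comparison. Those of Wac overlapped in all but Cirrhosis-PTH against Cirrhosis. Both Wac and Tle1 were named, with these differences known, when the genes were chosen.

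The effect of CCl4 was read from Cirrhosis against Control, and that of PTH given with CCl4 from Cirrhosis-PTH against Cirrhosis; Cirrhosis-PTH was also set against Control. Each pair of these comparisons shares the libraries of 1 group. Differences are given as log2(CPM + 0.143), a scale that shrinks differences between low values, with the SE of a single limma fit over all 474 circRNAs. As the members were chosen with results known, their differences are descriptions. At an adjusted p of 0.05, limma called 0 of 10 members and 0 of 474 circRNAs (0%) in each comparison. The smallest adjusted p over all 474 was 0.109 in Cirrhosis against Control, 0.051 in Cirrhosis-PTH against Cirrhosis (the Wac circRNA) and 0.506 in Cirrhosis-PTH against Control.

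At an unadjusted p under 0.05 limma had 58 of 474 circRNAs in Cirrhosis against Control (12.2%), among them 2 of 10 members, Wac and Tle1, where edgeR had 29 and 39 with its 2 scalings and DESeq2 38. It had 34 in Cirrhosis-PTH against Cirrhosis (7.17%), among them 1 member, Wac, and 25 in Cirrhosis-PTH against Control (5.27%), among them 1 member, Tle1. As the choice of genes used these contrasts, nothing is read from the members' counts. The groups did not overlap in CPM for 0 members in Cirrhosis against Control (0.211% of all circRNAs), for Wac alone in Cirrhosis-PTH against Cirrhosis (0.422%) and for 0 members in Cirrhosis-PTH against Control (0.422%).

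In the direction of the fitted difference, 5 of 10 members were higher in Cirrhosis than in Control, where 56.1% of all circRNAs were, and the median difference was 0.06 over the members and 0.12 over all. In Cirrhosis-PTH 5 of 10 were higher than in Cirrhosis (42% of all), with a median of 0.05 beside -0.17, and 3 of 10 were higher than in Control (49.8% of all), with a median of -0.14 beside -0.01. All 3 counts depended on scaling or tool. With each library centred on the 26 circRNAs detected in all 18 libraries, the median over all moved from 0.12 to -0.46 in Cirrhosis against Control and from -0.17 to 0.34 in Cirrhosis-PTH against Cirrhosis, and the members higher went from 5 to 1 and from 5 to 6. The share of all circRNAs that were higher moved to 28.9% and 63.9%. With edgeR on the total behind the CPM 7, 2 and 5 of 10 members were higher in the 3 comparisons (58.9%, 36.1% and 48.7% of all). With TMM scaling 7, 4 and 7 were (48.1%, 48.9% and 54.2% of all).

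**Figure D3:**
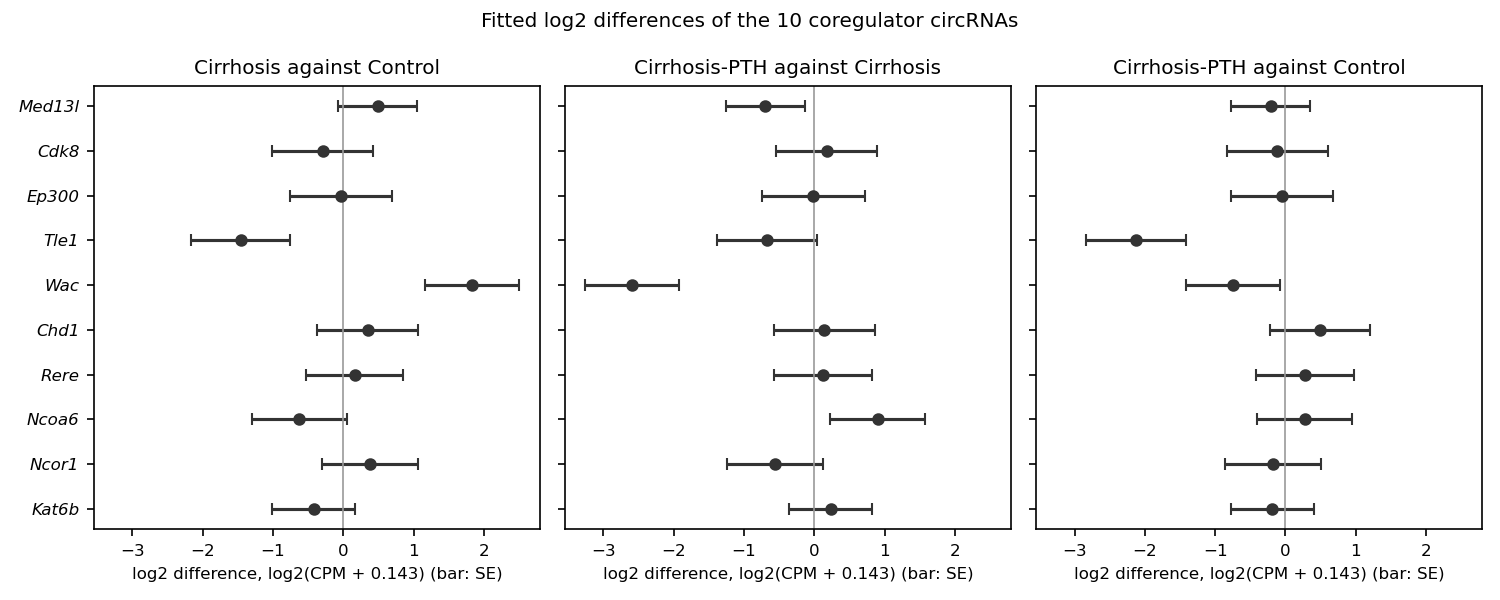
Fitted log2 difference (point) and its SE (bar) of each member circRNA in the 3 comparisons, with 0 as a grey line. Wac lies farthest above 0 in Cirrhosis against Control (1.84) and farthest below it in Cirrhosis-PTH against Cirrhosis (-2.59), and Tle1 lies lowest in Cirrhosis-PTH against Control (-2.13).

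Ep300 encodes p300, an acetyltransferase and coactivator of many transcription factors. Its circRNA (329 bases, chr15:81631614-81632512) spans codons 1087 to 1196 of 2412. The lowest, median and highest values were 0.192, 0.551 and 1.11 CPM in Control, 0, 0.792 and 3.65 in Cirrhosis, and 0.159, 0.5 and 1.41 in Cirrhosis-PTH. The highest was Cirrhosis 5, with 20 reads, while Cirrhosis 4 and Cirrhosis 6 had 0. The mean was 0.569 ± 0.305 CPM in Control livers, 1.03 ± 1.35 in Cirrhosis livers (0.508 without Cirrhosis 5) and 0.616 ± 0.483 in Cirrhosis-PTH livers. The fitted differences were -0.03, -0.01 and -0.05, with an SE of 0.73 each, and each changed sign under some settings. The first and the last have the opposite sign to the difference of the means.

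Ncoa6 encodes a coactivator of nuclear receptors that is part of histone methyltransferase complexes. Its circRNA joins exons 3 and 4 (378 bases, chr2:155437860-155440785). In Cirrhosis, Cirrhosis 3 held all 14 reads, at 1.81 CPM, and the other 5 libraries were at 0. Control had reads in 4 of 6 libraries, up to 0.739 CPM, and Cirrhosis-PTH in 5 of 6, up to 0.708. The means of 0.283 ± 0.288, 0.302 ± 0.74 and 0.325 ± 0.232 CPM were alike, and the Cirrhosis mean was 0 without Cirrhosis 3. The fitted differences of -0.63 ± 0.68 in Cirrhosis against Control and 0.90 ± 0.68 in Cirrhosis-PTH against Cirrhosis changed sign in edgeR and DESeq2. The first has the opposite sign to the difference of the means.

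Kat6b encodes a histone acetyltransferase of the MYST family. Its circRNA holds 5 coding exons, 8 to 12 (636 bases, chr14:21626719-21637640), the most of any member, and was the least abundant. Its means were 0.238 ± 0.281 CPM in Control livers (0.137 without Control 1), 0.115 ± 0.139 in Cirrhosis livers (0.0742 without Cirrhosis 2) and 0.244 ± 0.434 in Cirrhosis-PTH livers (0.071 without Cirrhosis-PTH 5). Cirrhosis-PTH 5 held 14 of the 22 reads of its group, at 1.11 CPM. The groups overlapped, and the fitted differences were -0.42 ± 0.59 in Cirrhosis against Control and 0.23 ± 0.59 in Cirrhosis-PTH against Cirrhosis. The second was -0.21 without Cirrhosis-PTH 5.

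Med13l encodes a subunit of the kinase module of Mediator, the part that holds CDK8 and can keep Mediator from RNA polymerase II. Its circRNA was the only member detected in all 18 libraries, with 295 reads. The lowest, median and highest values were 1.53, 1.98 and 2.37 CPM in Control, 1.81, 2.79 and 5.32 in Cirrhosis, and 0.522, 1.71 and 4.01 in Cirrhosis-PTH. The Control libraries were close together, and a single library stood high in each of the other groups, Cirrhosis 4 and Cirrhosis-PTH 2. The groups overlapped.

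The means of Med13l were 1.93 ± 0.325, 2.92 ± 1.28 and 1.89 ± 1.14 CPM. The fitted differences were 0.49 ± 0.56 in Cirrhosis against Control, -0.70 ± 0.56 in Cirrhosis-PTH against Cirrhosis and -0.21 ± 0.56 in Cirrhosis-PTH against Control. The first was -0.09 after median centring, so its direction depended on scaling, while the second kept its sign under every setting run. Limma's adjusted p was 0.657 or more in all 3.

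Cdk8 encodes the kinase of the same module. Its circRNA holds coding exons 2 to 4 (328 bases, chr5:146259505-146271735), codons 43 to 152 of 464. The lowest, median and highest values were 0, 0.857 and 2.96 CPM in Control, 0, 0.828 and 2.9 in Cirrhosis, and 0, 0.579 and 3.5 in Cirrhosis-PTH, so that the ranges nearly coincided. The means were 1.09 ± 1.07, 1.02 ± 1.09 and 1.04 ± 1.26 CPM, and 0.717, 0.642 and 0.545 without the highest library of each group (Control 1, Cirrhosis 4 and Cirrhosis-PTH 1). The fitted differences lay within 0.29 of 0, with an SE of 0.72, and changed sign in each comparison when single libraries were left out.

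Wac encodes an adaptor with a WW domain that brings the ubiquitin ligases RNF20 and RNF40 to transcribed chromatin, where histone H2B is ubiquitinated. Its circRNA is made of coding exons 4 to 6 (336 bases, chr18:7901496-7906044, plus strand). In Control the lowest, median and highest library stood at 0, 0.0759 and 0.575 CPM, with 6 reads in 3 of 6 libraries. In Cirrhosis the same values were 0.134, 0.616 and 2.77 CPM, with 36 reads spread over 6 of 6 libraries, 15 of them in Cirrhosis 6 and 10 in Cirrhosis 4. In Cirrhosis-PTH all 6 libraries had 0 reads. Every Cirrhosis library thus lay above every Cirrhosis-PTH library, while Cirrhosis and Control overlapped.

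The mean was 0.15 ± 0.223 CPM in Control livers (0.0643 without Control 6), 1.13 ± 1.17 in Cirrhosis livers and 0 in Cirrhosis-PTH livers. Over pooled reads, the level in Cirrhosis (0.908 CPM) was 22.1 times the floor of 3 reads over the Cirrhosis-PTH group. With the counting error of both groups, Wac was at least 17.0-fold lower with PTH than with CCl4 alone (lower end of the exact 95% interval). That end was 10.2-fold without Cirrhosis-PTH 6 and 11.1-fold without Cirrhosis 6. The ratio of pooled reads in Cirrhosis to those in Control was 5.97 (exact 95% interval 2.49 to 17.3), counting error only. It was 10.4 without Control 6 and 4.04 without Cirrhosis 6. As reads are pooled over mice, these limits leave out the spread between mice. Above the Control mean lay 5 of 6 Cirrhosis libraries, and also Control 3, Control 6 and Control 8. Below the Cirrhosis mean lay 6 of 6 Cirrhosis-PTH libraries, as any group at 0 would. Cirrhosis 1, Cirrhosis 2, Cirrhosis 3 and Cirrhosis 5 lay below it as well. The fitted difference was 1.84 ± 0.67 in Cirrhosis against Control and -2.59 ± 0.67 in Cirrhosis-PTH against Cirrhosis.

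For the latter, limma's adjusted p was 0.051. On the recovered reads the Wac circRNA was the only call of edgeR (adjusted p = 0.0392 with TMM scaling and 0.00678 with the total behind the CPM) and of DESeq2 (adjusted p = 0.0125), 1 of 474 each (0.211%), with 24, 30 and 37 circRNAs at an unadjusted p under 0.05. Limma's adjusted p fell under the threshold when Control 6, Cirrhosis 1, Cirrhosis 2 or Cirrhosis 3 was left out (0.0313, 0.0184, 0.0363 and 0.028). It rose to 0.158 without Cirrhosis 4, to 0.147 without Cirrhosis 6 and to 0.137 to 0.188 without any 1 Cirrhosis-PTH library. Over all other settings it ran up to 0.305, with median centring. With 9 detected libraries, the fewest the table holds, Wac was listed through Control and Cirrhosis alone. It was also named with its differences known, so its ratios and these calls describe the reads and support nothing.

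The circRNAs of macrophage marker genes also had their highest group median in Cirrhosis. Of 10 macrophage and Kupffer cell genes, 2 (Adgre1 and Mertk) hosted 3 listed circRNAs, whose summed level was 0 to 1.02 CPM in Control, 0.184 to 6.76 in Cirrhosis and 0.149 to 1.19 in Cirrhosis-PTH. Cd68, Clec4f, Csf1r, Vsig4, Marco, Timd4, Itgam and Cd5l had no listed circRNA. Cirrhosis 6, the library with the most Wac (2.77 CPM), had 1 macrophage read (0.184 CPM), and Cirrhosis 4 had 2.42 CPM of Wac and 4.59 CPM of the macrophage circRNAs. The part of macrophage content in the Wac values was not tested. In whole liver, fewer cells of a type and less RNA per cell cannot be told apart. Of 17 hepatocyte marker genes only Egfr hosted a listed circRNA, and of stellate, endothelial, cholangiocyte and erythroid markers none did, so the table is no check of tissue makeup. Of 10 lymphocyte markers only Ikzf1 hosted one. Its lowest, median and highest values were 0.0849, 0.599 and 0.959 CPM in Control, 0, 0.467 and 2.19 in Cirrhosis, and 0, 0.422 and 0.708 in Cirrhosis-PTH.

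Chd1 encodes a chromatin remodeller that moves nucleosomes on transcribed genes. Its circRNA joins coding exons 16 and 17 (316 bases, chr17:15742157-15743230). Its lowest, median and highest values were 0, 0.051 and 1.85 CPM in Control, 0, 0.402 and 0.954 in Cirrhosis, and 0, 0.435 and 0.526 in Cirrhosis-PTH. The highest Control value was of Control 1, from 5 reads, and the Control mean of 0.389 ± 0.73 CPM was 0.0971 without it. The groups overlapped, with fitted differences of 0.35 ± 0.72 in Cirrhosis against Control and 0.14 ± 0.72 in Cirrhosis-PTH against Cirrhosis. The second has the opposite sign to the difference of the means, 0.445 CPM in Cirrhosis and 0.337 in Cirrhosis-PTH.

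Tle1 encodes a corepressor of the Groucho family, which represses targets of Wnt, Notch and other pathways. Its circRNA had reads in 9 libraries, 5 of Control, 3 of Cirrhosis and 1 of Cirrhosis-PTH. The lowest, median and highest values were 0, 0.744 and 3.33 CPM in Control and 0, 0.106 and 0.804 in Cirrhosis. In Cirrhosis-PTH, Cirrhosis-PTH 1 stood at 0.526 CPM, from 3 reads, and the other 5 libraries at 0. The groups overlapped, since Control 3 had 0 reads as well. No library of Cirrhosis or Cirrhosis-PTH reached the Control mean, and 4 of 6 Control libraries did not reach it either. Cirrhosis 1, at 0.804 CPM, lay above the Control mean without Control 1 (0.714 CPM).

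The mean of Tle1 was 1.15 ± 1.25 CPM in Control (0.714 without Control 1), and it was 0.256 ± 0.337 in Cirrhosis (0.146 without Cirrhosis 1) and 0.0876 ± 0.215 in Cirrhosis-PTH. The pooled reads were 33, 12 and 3. The pooled level in Control was 2.76 times that in Cirrhosis (exact 95% interval 1.39 to 5.87), counting error only. It was 4.49 times without Cirrhosis 1, and 2.16 times without Control 1 (exact 95% interval 1.04 to 4.73). The pooled level in Control was 20.3 times that in Cirrhosis-PTH (exact 95% interval 6.37 to 104), and 12.2 times without Cirrhosis-PTH 6, again counting error only. Without Cirrhosis-PTH 1 that group had 0 reads, and the lower end of the exact 95% interval of the ratio of Control to Cirrhosis-PTH was 14.4. With reads in 9 libraries, the fewest the table holds, Tle1 was listed largely through the group where it was high, so these ratios describe the reads and support nothing. The fitted differences were -1.46 ± 0.71 in Cirrhosis against Control, -0.67 ± 0.71 in Cirrhosis-PTH against Cirrhosis and -2.13 ± 0.71 in Cirrhosis-PTH against Control. Limma's adjusted p was 0.381, 0.75 and 0.587, and neither edgeR nor DESeq2 called Tle1 in any of the 3. All 3 differences kept their sign under every setting that could be fitted, as did the 3 of Wac.

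**Figure D4:**
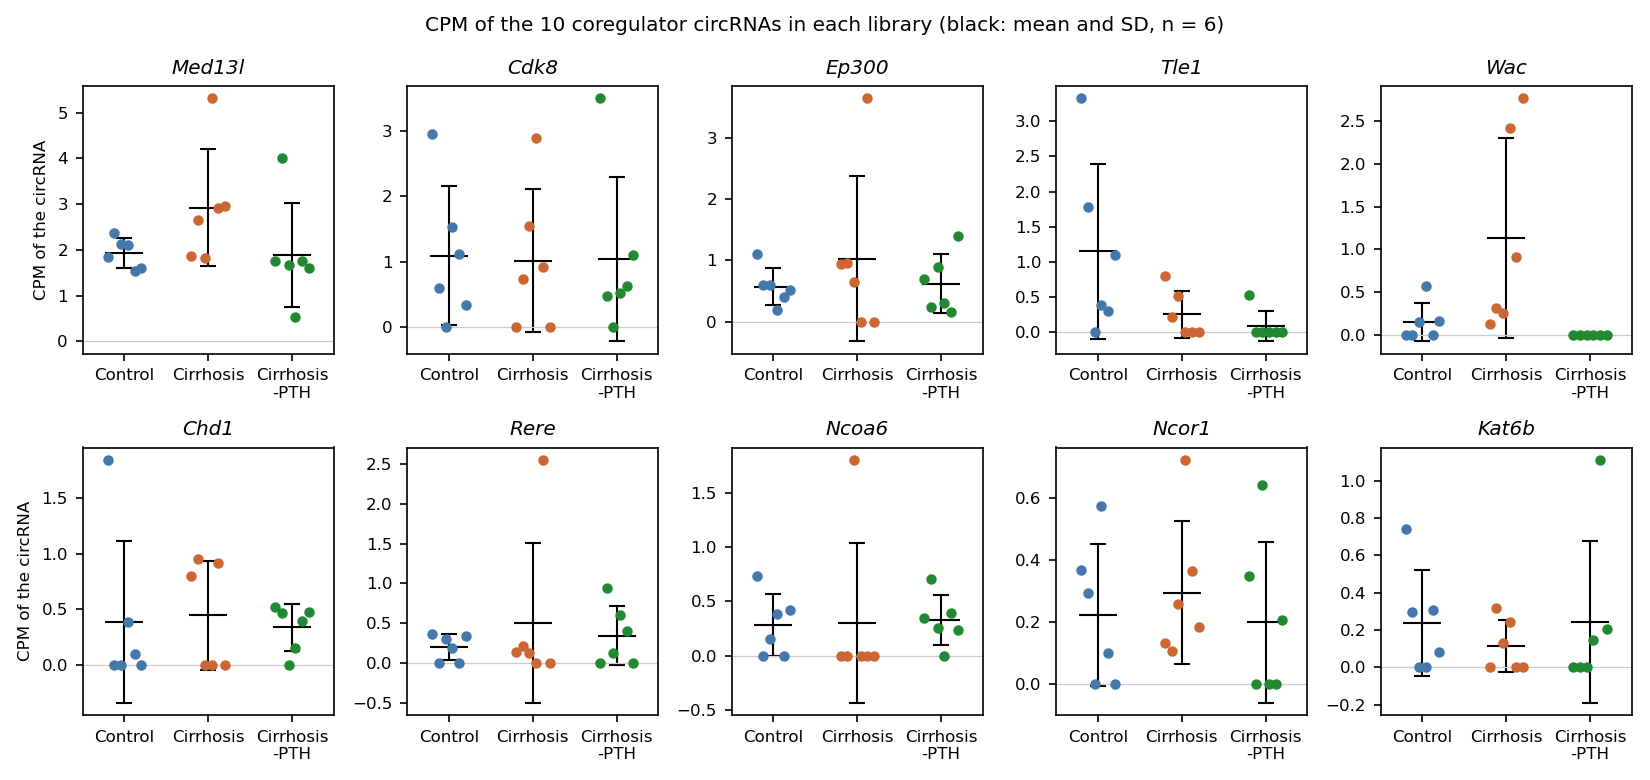
CPM of each member circRNA in each library (points), with the mean and SD of the 6 libraries of a group in black; each panel has its own axis. Wac is at 0 in all 6 Cirrhosis-PTH libraries, Tle1 is highest in Control (up to 3.33 CPM), and in Rere, Ncoa6 and Ep300 a single Cirrhosis library (2.56, 1.81 and 3.65 CPM) stands above the rest.

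Ncor1 encodes a corepressor of nuclear receptors that holds the deacetylase HDAC3. Its circRNA joins exons 2 and 3 (315 bases, chr11:62433563-62438515). It had 29 reads in 13 libraries, the fewest reads of any member, with at most 6 in a library. The lowest, median and highest values were 0, 0.199 and 0.575 CPM in Control, 0.106, 0.222 and 0.725 in Cirrhosis, and 0, 0.103 and 0.642 in Cirrhosis-PTH. Cirrhosis was the group in which all 6 libraries had reads. The means were 0.224 ± 0.23, 0.296 ± 0.23 and 0.2 ± 0.26 CPM (0.111 in Cirrhosis-PTH without Cirrhosis-PTH 3), and the fitted differences were 0.38 ± 0.68 in Cirrhosis against Control and -0.56 ± 0.68 in Cirrhosis-PTH against Cirrhosis. The first was -0.19 after median centring.

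Rere encodes a corepressor of the atrophin family. Its circRNA holds coding exons 5 to 7 (308 bases, chr4:150468695-150477468). Cirrhosis 5 stood at 2.56 CPM, from 14 reads, and the other Cirrhosis libraries at 0 to 0.212. The Cirrhosis mean was 0.505 ± 1.01 CPM and 0.0951 without Cirrhosis 5, beside 0.201 ± 0.167 in Control and 0.344 ± 0.377 in Cirrhosis-PTH (0.224 without Cirrhosis-PTH 2). The fitted differences of 0.16 ± 0.70 in Cirrhosis against Control and 0.12 ± 0.70 in Cirrhosis-PTH against Cirrhosis were within their SE of 0, and the first was -0.44 without Cirrhosis 5. The second has the opposite sign to the difference of the means.

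Of 182 other names on a list of coregulator, Mediator and remodeller genes, 6 hosted a listed circRNA, 1 each, and limma called 0 of the 6 in each comparison. In order of mean CPM they came from Ascc3, Phf21a, Nrip1, Pbrm1, Trim33 and Med15. That of Ascc3, a helicase gene of a coactivator complex, averaged 0.434 ± 0.278 CPM in Control libraries, 1.52 ± 0.572 in Cirrhosis libraries and 0.45 ± 0.556 in Cirrhosis-PTH libraries. That of Phf21a, a corepressor gene that acts with a histone demethylase, averaged 0.786 ± 0.813, 1.03 ± 0.747 and 0.327 ± 0.444 CPM, and that of Nrip1, a corepressor gene of nuclear receptors, at 0.602 ± 0.765, 0.531 ± 0.503 and 0.517 ± 0.595. By the fitted difference 5 of 6 were higher in Cirrhosis than in Control and 5 of 6 lower in Cirrhosis-PTH than in Cirrhosis (2 and 3 of 6 after median centring). Over all circRNAs 56.1% and 42% were higher. The medians of the 6 were 0.31 and -0.75, beside 0.12 and -0.17 over all, and -0.27 and -0.24, beside -0.46 and 0.34, after median centring.

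The circRNAs of other hosts whose levels followed the members most closely over the 18 libraries were found by Pearson's r of log2(CPM + 0.143), as a description. For Wac they were those of Pvt1 (r = 0.774), Eed (r = 0.711) and Mcu (r = 0.704). For Med13l they were those of Pvt1 (r = 0.754), Rmdn2 (r = 0.753) and Rmnd5a (r = 0.72). For Tle1 they were those of Exoc3l2 (r = 0.729), Pabpn1 (r = 0.67) and Ssh2 (r = 0.596). Points share a library, its depth and its group, and were ranked over all circRNAs of the table. The Pvt1 circRNA, which leads for both Wac and Med13l, averaged 1.15 CPM over Control libraries, 5.6 over Cirrhosis libraries and 1.29 over Cirrhosis-PTH libraries.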

How the data were processed

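The CPM values were made by the authors and deposited as 1 table, 1 line per circRNA and 1 column per library. CIRI, in no named version, made the circRNA list, per the file headers. The submitters' processing notes name Trim Galore, cutadapt 4.2, Bowtie2, Bowtie 1.3.1, HISAT2 2.2.1 and StringTie 2.1.5, without their roles, and the build GRCm38. What the total behind the CPM counts was not stated. Ribosomal RNA was removed, and no digestion of linear RNA is named, per the labels' protocols. Whole reads were recovered from the CPM steps (100% of values within 0.01, totals of 2706146 to 29164326).

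Ends were matched to exon ends of GENCODE M21, and sequences were read from its transcripts. No strand is given in the table, so strand is the host's. One limma 3.58.1 model in R 4.3.3, with trend, of log2(CPM + 0.143) over 18 libraries tested 474 circRNAs, 2-sided, with Benjamini-Hochberg adjustment; the filter (above 0 in 6 libraries) removed 0. The fit was tested on simulated data. Alternatives were edgeR 4.0.16, DESeq2 1.42.0, other pseudocounts, filters, scalings and libraries. Python 3.11.15, SciPy 1.17.1 and matplotlib 3.10.9 were used. The members and lists were chosen with earlier results of these data known. All members are described; of the other coregulators those with listed circRNAs (up to 8 by mean CPM) are named, and for Wac, Tle1 and the most abundant member the 3 circRNAs of highest r. No 2 libraries of a group were alike within sampling noise (45 pairs, chi-square over its degrees of freedom 1.86 to 5.56).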

Additional observations from a re-analysis of the deposited data

Results flagged for a closer look

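In 10 of 29 groups of 6 libraries a single library lay far from the rest of its group, by a gap of over 0.625 of the group's range; chance gives about 1 in 20 for normally distributed values. These are low counts with many zeros, and a group with reads in 1 library has the whole range as its gap, so the 10 are not set against that share. Each was the highest of its group. In Control these were Chd1 in Control 1 (1.85 CPM, 5 reads) and Wac in Control 6 (0.575 CPM, 3 reads). In Cirrhosis they were Med13l in Cirrhosis 4 (5.32 CPM, 22 reads), Ep300 and Rere in Cirrhosis 5 (3.65 CPM, 20 reads, and 2.56 CPM, 14 reads) and Ncoa6 in Cirrhosis 3 (1.81 CPM, 14 reads). In Cirrhosis-PTH they were Med13l in Cirrhosis-PTH 2 (4.01 CPM, 17 reads), Cdk8 and Tle1 in Cirrhosis-PTH 1 (3.5 CPM, 20 reads, and 0.526 CPM, 3 reads) and Kat6b in Cirrhosis-PTH 5 (1.11 CPM, 14 reads).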

How the results depend on the processing

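In Cirrhosis against Control limma's 0 calls became 2 with median centring (Hnrnpu and Ube2g2) and DESeq2 made 1 (Ube2g2) among the 153 of 474 circRNAs to which it gave an adjusted p, which leaves out Wac, Chd1, Rere, Ncoa6, Ncor1 and Kat6b; leaving out single libraries gave 0 to 1 (Rock1, without Control 3). In Cirrhosis-PTH against Cirrhosis edgeR made 1 call under both scalings, DESeq2 1, and leaving out single libraries gave 0 to 1, each time Wac. In Cirrhosis-PTH against Control the count was 0 under every setting run, with 25 circRNAs at an unadjusted p under 0.05 in limma, 20 and 18 in edgeR and 28 in DESeq2. The cause of these shifts was not tested. No call came from a member other than Wac, among those with an adjusted p. Of the 30 member differences, 8 kept their sign under every setting that could be fitted and 22 did not; the 8 were those of Wac and Tle1 in all 3 comparisons, Kat6b in Cirrhosis against Control and Med13l in Cirrhosis-PTH against Cirrhosis. Of 915 values, 11 were counted as moved by more than the spread between replicates. The Wac difference in Cirrhosis-PTH against Cirrhosis was judged by its sign and adjusted p instead, so its 30 values could not count among the 11. They ran from -6.25 to -0.92, beside -2.59 in the main limma fit. A filter of above 0 in 12 libraries left 271 circRNAs and removed Wac, Tle1, Chd1, Ncoa6 and Kat6b, which have no value there.

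Title numbers are shared between groups, but no label says that they pair mice. Deviations of same-numbered libraries correlated at -0.0572 to 0.0817, and 1 of 18 libraries correlated best with its own number. With the number as a replicate block 0 circRNAs were called in each comparison, and limma's adjusted p of Wac in Cirrhosis-PTH against Cirrhosis was 0.137, against 0.198 for the same libraries without the block, a fit added after the data were seen. Low depth limits all of this: the median value was 2 reads, and of 29 member group means above 0, 16 moved by over 1.5 times without their highest library.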
